A study of Mus musculus with 20 samples.

Results

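The transcripts of 7 Eph receptors (*Epha1*, *Epha2*, *Epha4*, *Epha7*, *Ephb2*, *Ephb3* and *Ephb4*) and 3 of their ephrin ligands (*Efna1*, *Efnb1* and *Efnb2*) were followed in bulk RNA sequencing of trunk-like structures that were raised from mouse embryonic stem cells. These 10 genes were taken by name from the 54446 gene IDs of the deposited tables, and all 10 were among the 14290 genes abundant enough to be tested. The tables hold 22 genes of the family, 14 receptors and 8 ephrins, and the 12 not followed here in full are summarised near the end. The data are 15 libraries, 3 from each of 5 groups, which the labels call biological replicates. The study compared how a gel, an activator of WNT signalling and an inhibitor of BMP receptors alter structures that form somites and a neural tube.

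All libraries came from 1 line of mouse embryonic stem cells, F1G4, with fluorescent reporters for Brachyury and Sox2 (T::H2B-mCherry/Sox2::H2B-Venus), so the replicates do not sample other lines. The cells were left to aggregate for 48 h and then received a pulse of 3 µM CHIR99021, an inhibitor of GSK3 that activates WNT signalling, in every group including the one used as the starting point. The 96h group was collected at 96 h, with 10 structures pooled in each library. The other groups were collected at 120 h, with 6 structures pooled in each library. Gastruloid structures were grown without Matrigel. TLSMG structures, the trunk-like structures, were grown in Matrigel, which is an extract rich in laminin and collagen IV. TLSMGC structures were grown in Matrigel with further CHIR99021. TLSMGCL structures had Matrigel, CHIR99021 and also LDN, which blocks BMP receptors. Structures were pooled only if they had formed an asymmetric pole.

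Eph proteins are receptor tyrosine kinases that are activated by ephrins on the surface of a neighbouring cell, and the ephrin-bearing cell can signal back. EphA receptors bind mainly the ephrin-A ligands, which are held in the membrane by a lipid anchor, whereas EphB receptors bind mainly the ephrin-B ligands, which cross it. EphA4 also binds ephrin-B ligands. In the trunk of the embryo the family is best known for keeping cells apart at boundaries: EphA4 and ephrin-B2 act where a new somite separates from the presomitic mesoderm. EphB4 and ephrin-B2 mark veins and arteries, and several members guide axons and set up domains in the neural tube.

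The 5 members *Epha1*, *Epha2*, *Epha4*, *Ephb4* and *Efnb2* had their highest level in the 96h group, with every 96h library above all 12 libraries of the other groups. The sequences just upstream of these 5 genes are shown because each had this pattern over the groups. Each is the 250 bases before the RefSeq transcription start on build GRCm38.p6, written 5′ to 3′ on the strand of the gene, with capitals marking matches to any of 4 motifs searched on both strands. The windows lie at chr6:42373269-42373518 on the minus strand for *Epha1*, chr4:141300971-141301220 on the plus strand for *Epha2*, chr1:77515089-77515338 on the minus strand for *Epha4*, chr5:137349859-137350108 on the plus strand for *Ephb4* and chr8:8661243-8661492 on the minus strand for *Efnb2*.
Epha1: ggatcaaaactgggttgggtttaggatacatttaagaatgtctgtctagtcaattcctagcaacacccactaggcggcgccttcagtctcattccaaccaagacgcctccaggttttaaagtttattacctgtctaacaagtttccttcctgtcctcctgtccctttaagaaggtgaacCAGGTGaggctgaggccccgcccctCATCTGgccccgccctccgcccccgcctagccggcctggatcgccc
Epha2: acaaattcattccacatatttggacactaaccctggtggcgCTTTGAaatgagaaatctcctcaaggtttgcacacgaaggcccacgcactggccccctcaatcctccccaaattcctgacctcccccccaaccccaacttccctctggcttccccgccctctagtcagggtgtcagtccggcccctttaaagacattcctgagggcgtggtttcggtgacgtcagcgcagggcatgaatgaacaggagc
Epha4: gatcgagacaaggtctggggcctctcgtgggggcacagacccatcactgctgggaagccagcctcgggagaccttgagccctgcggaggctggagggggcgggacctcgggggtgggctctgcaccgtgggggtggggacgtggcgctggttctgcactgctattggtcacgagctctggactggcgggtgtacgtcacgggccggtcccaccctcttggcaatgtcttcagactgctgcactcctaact
Ephb4: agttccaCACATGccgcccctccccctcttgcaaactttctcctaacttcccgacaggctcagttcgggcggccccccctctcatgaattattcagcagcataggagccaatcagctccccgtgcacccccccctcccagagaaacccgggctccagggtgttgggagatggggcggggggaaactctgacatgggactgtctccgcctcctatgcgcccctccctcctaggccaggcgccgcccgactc
Efnb2: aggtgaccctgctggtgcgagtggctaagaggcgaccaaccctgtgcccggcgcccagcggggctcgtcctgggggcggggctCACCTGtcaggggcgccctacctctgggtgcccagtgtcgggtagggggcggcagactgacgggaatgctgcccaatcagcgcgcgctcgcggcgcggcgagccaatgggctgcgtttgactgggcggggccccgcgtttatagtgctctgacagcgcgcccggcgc
The motifs were the TCF/LEF core (CTTTGA or CTTTGT), the E-box (CANNTG, which reads the same on both strands), the T-box core (GGTGTGA) and the CDX core (TTTATG). The capitals are 2 E-boxes in the *Epha1* window, starting 71 and 46 bases before the start, 1 TCF/LEF core 209 bases before the *Epha2* start, 1 E-box 243 bases before the *Ephb4* start and 1 E-box 167 bases before the *Efnb2* start. No 2 of these matches overlap. The *Epha4* window held none of the motifs. RefSeq entries were found for all 10 members. Among all 32851 windows of this length, 27.6% held the TCF/LEF core, 66.2% an E-box, 3.33% the T-box core and 10.8% the CDX core. The 10 members have 12 windows, of which 1, 5, 1 and 0 held a match, and the numbers of members with a match were the same. A match describes letters only.

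**Figure D1:**
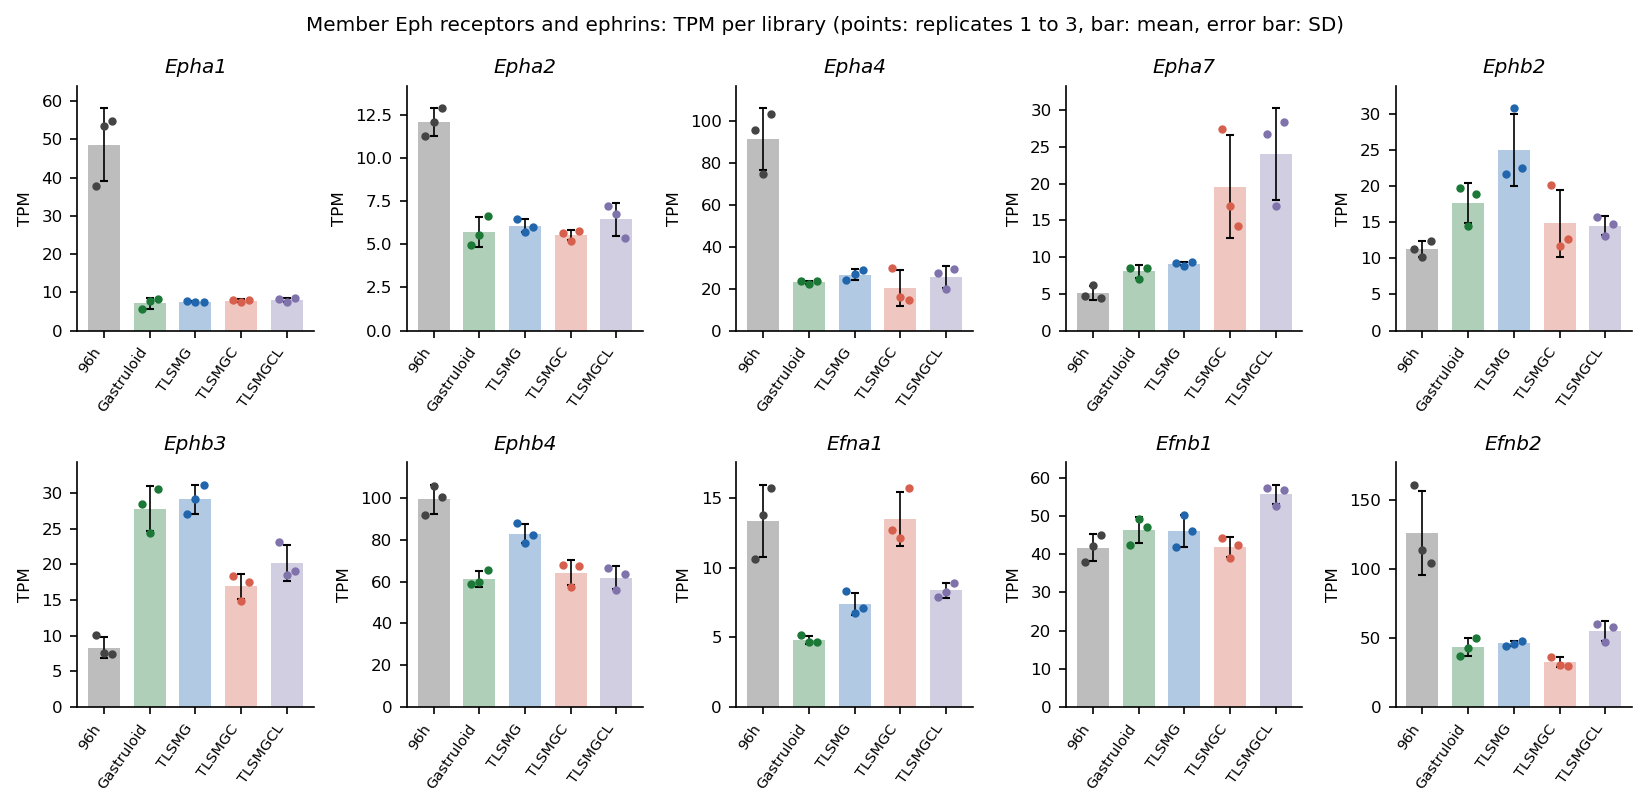
TPM of each of the 10 members (vertical axis, 1 panel per gene) in the 5 groups, with points for replicates 1 to 3, bars for the mean and error bars for the SD. *Epha1*, *Epha2*, *Epha4*, *Ephb4* and *Efnb2* stand highest in the 96h group, *Ephb3* stands lowest there, and *Epha7* is highest in the TLSMGC and TLSMGCL groups.

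Levels are given in TPM (transcript abundance corrected for transcript length and scaled to the same total in each library), so that genes can be compared with each other. Every difference is a difference of mean log2(TPM + 1) values, tested with limma over all 14290 genes, with Benjamini-Hochberg adjusted p-values, two-sided, and a threshold of 0.05. The relative sequencing depth differed by 2.19 times between the deepest and the shallowest library. In a test for any difference among the 5 groups, 10 of the 10 members passed, against 73.5% of all tested genes. The 12 presomitic and tailbud markers summed to 1720 to 2220 TPM in the 96h libraries and 192 to 302 TPM in the Gastruloid libraries. The 12 neural tube markers summed to 76.6 to 93.9 TPM in the 96h libraries and 400 to 549 TPM in the Gastruloid libraries. They summed to 63.9 to 91.0 TPM in the TLSMGC and TLSMGCL libraries. In the TLSMGC and TLSMGCL libraries the neural gene *Dbx2* and the somite gene *Tbx22* were listed at 0 throughout. The 11 somite markers summed to 798 TPM or more in every library, although 4 of them averaged under 1 TPM in the TLSMGC group and 4 in the TLSMGCL group.

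*Epha1*, on chromosome 6 (42358487 to 42373268, GRCm38), encodes one of the EphA receptors, which bind ephrin-A ligands. Its levels in the 3 libraries of the 96h group were 37.7, 53.4 and 54.8 TPM. In the 12 libraries at 120 h they lay between 5.57 and 8.40 TPM. The 96h libraries were thus all several-fold above the rest, and the 4 groups at 120 h overlapped with their neighbours in the order of levels. The mean was 48.6 ± 9.48 TPM (SD, n = 3) in the 96h group and 7.15 ± 1.40 TPM (SD, n = 3) in the Gastruloid group, which is 6.80 times lower. The log2 difference was -2.60 (SE 0.142, limma adjusted p = 7.82e-09), the largest of the members in that comparison. Against the 96h group, *Epha1* also fell in TLSMG (-2.52, limma adjusted p = 1.09e-08) and in TLSMGC (-2.47, limma adjusted p = 2.06e-08), comparisons that share the same 3 libraries. The 3′ end of *Epha1* overlaps *Zyx*, a gene on the opposite strand (42349630 to 42360213), and how strand was handled in quantification is not given in the sources used here. *Zyx* stood at 159 ± 20.9 TPM (SD, n = 3) in the 96h group and at 122 ± 2.02 TPM (SD, n = 3) in the Gastruloid group, 1.30 times lower. Its share in the *Epha1* values was not tested. In bulk samples such as these, fewer cells of a type and less RNA per cell cannot be told apart, here and in all results that follow.

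*Epha4*, on chromosome 1 (77367185 to 77515088), encodes the receptor known for its part at somite boundaries. Its levels were 95.5, 74.9 and 103.5 TPM in the 96h libraries and 23.5, 22.0 and 23.5 TPM in the Gastruloid libraries. They were 23.9, 27.1 and 28.9 TPM in TLSMG. The 96h group was higher without overlap, by 3.97 times over the Gastruloid mean. The log2 difference was -1.93 in Gastruloid (SE 0.218, limma adjusted p = 1.11e-05) and -1.73 in TLSMG (limma adjusted p = 2.64e-05). The TLSMGC libraries spread widely, at 30.0, 15.9 and 14.7 TPM, and so did the TLSMGCL libraries, at 27.6, 19.7 and 29.4 TPM. TLSMGC replicate 1 stood well above the other two, and the group mean of 20.2 ± 8.49 TPM (SD, n = 3) did not pass the test against TLSMG (-0.45, limma adjusted p = 0.117). Without that library the difference was -0.76 (limma adjusted p = 0.00309).

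*Efnb2*, on chromosome 8 (8617434 to 8661242), encodes ephrin-B2, a ligand of EphA4 and of the EphB receptors. It was the most abundant ephrin of the members in the 96h group, with 161.3, 113.7 and 104.7 TPM. The Gastruloid libraries had 37.3, 43.1 and 50.2 TPM and the TLSMG libraries 44.6, 45.8 and 48.2 TPM. Every 96h library exceeded every later one, and Gastruloid and TLSMG overlapped. The mean fell from 127 ± 30.4 to 43.5 ± 6.47 TPM (SD, n = 3 each) in Gastruloid, a log2 difference of -1.50 (SE 0.153, limma adjusted p = 3.95e-06), and the difference in TLSMG was -1.41 (limma adjusted p = 6.47e-06). Over the 15 libraries the levels of *Efnb2* and *Epha4* had a Pearson r of 0.936 on the log2 scale, given as a description of libraries that fall into groups, with the 96h libraries high for both genes.

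*Epha2*, on chromosome 4 (141301240 to 141329384), encodes a receptor for ephrin-A1. It was less abundant than *Epha4*, at 11.3, 12.1 and 12.9 TPM in the 96h libraries and between 4.94 and 7.23 TPM in the 12 later ones. The later groups overlapped one another. Its log2 difference to the 96h group was -0.97 in Gastruloid (SE 0.115, limma adjusted p = 1.66e-05) and -0.89 in TLSMG (limma adjusted p = 3.25e-05). The tested gene most like *Epha2* over the 15 libraries was *Mesp2* (Pearson r = 0.963), followed by *Ripply2* (0.962) and *Ogdhl* (0.959). *Mesp2* and *Ripply2* are known for positioning the somite boundary, and both were in the segment boundary list used here. Of the 10 genes of that list, 5 were lower, 3 higher and 2 not called in Gastruloid against the 96h group, and the counts were the same in TLSMG. *Mesp2* stood at 131 ± 8.99 TPM (SD, n = 3) in the 96h group and 3.90 ± 1.94 TPM (SD, n = 3) in Gastruloid. The presomitic and tailbud markers moved in the same direction, with 12 of 12 lower in Gastruloid and 12 of 12 lower in TLSMG than in the 96h group, and their part in the levels of the members was not tested.

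*Ephb3* went the other way. This EphB receptor, encoded on chromosome 16 (21204755 to 21223305), had 10.1, 7.54 and 7.37 TPM in the 96h libraries. It had 28.5, 24.4 and 30.5 TPM in the Gastruloid libraries and 27.0, 29.2 and 31.1 TPM in the TLSMG libraries. All later libraries were above all 96h libraries, and Gastruloid and TLSMG overlapped. The mean rose 3.33 times in Gastruloid, from 8.33 ± 1.52 to 27.8 ± 3.12 TPM (SD, n = 3 each), with a log2 difference of 1.63 (SE 0.128, limma adjusted p = 3.12e-07), and the difference in TLSMG was 1.7 (limma adjusted p = 1.87e-07). The level of *Ephb3* ran opposite to that of *Epha1* over the 15 libraries (Pearson r = -0.889), and its most similar genes were *Plat* (0.986), *Foxd1* (0.974) and *Ssc5d* (0.972).

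*Ephb2*, on chromosome 4 (136647539 to 136835988), encodes a receptor that is known from axon guidance. It had 11.3, 10.2 and 12.4 TPM in the 96h libraries, 19.7, 14.5 and 18.9 TPM in Gastruloid and 21.7, 30.8 and 22.5 TPM in TLSMG. The 96h group lay below both others without overlap. The log2 difference was 0.60 in Gastruloid (SE 0.185, limma adjusted p = 0.0198) and 1.06 in TLSMG (limma adjusted p = 0.000391). The first of these missed the threshold without 96h replicate 2 (limma adjusted p = 0.0695), without Gastruloid replicate 1 (limma adjusted p = 0.0746) and without Gastruloid replicate 3 (limma adjusted p = 0.0616).

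*Ephb4*, on chromosome 5 (137350109 to 137378669), encodes the venous receptor for ephrin-B2. It was abundant everywhere, with 91.8, 105.6 and 100.7 TPM in the 96h libraries, 58.7, 59.6 and 65.4 TPM in Gastruloid and 87.9, 78.7 and 82.5 TPM in TLSMG. The 3 groups did not overlap, with Gastruloid lowest and TLSMG between. Against the 96h group the log2 difference was -0.69 in Gastruloid (SE 0.086, limma adjusted p = 2.83e-05) and -0.26 in TLSMG (limma adjusted p = 0.0266). The TLSMG call was lost without 96h replicate 2 (limma adjusted p = 0.103), 96h replicate 3 (0.0704), TLSMG replicate 2 (0.0958) or TLSMG replicate 3 (0.0637). At 96 h, where *Ephb4* was highest, the 9 endothelial markers summed to only 10.1 to 14.8 TPM, and the endothelial cadherin *Cdh5* stood at 0.154 ± 0.0715 TPM (SD, n = 3).

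*Efna1*, on chromosome 3 (89271733 to 89281142), encodes ephrin-A1, a ligand of EphA2. Its levels were 10.6, 13.8 and 15.7 TPM in the 96h libraries, 5.14, 4.64 and 4.66 TPM in Gastruloid and 8.29, 6.76 and 7.10 TPM in TLSMG. The groups did not overlap. *Efna1* fell in Gastruloid by 1.29 on the log2 scale (SE 0.132, limma adjusted p = 4.39e-06) and in TLSMG by 0.76 (limma adjusted p = 0.000381). *Efnb1*, on the X chromosome (99136130 to 99148991), encodes ephrin-B1 and was the steadiest of the members, between 37.9 and 57.4 TPM in all 15 libraries. Its log2 difference to the 96h group was 0.15 in Gastruloid (SE 0.085, limma adjusted p = 0.183) and 0.14 in TLSMG (limma adjusted p = 0.199), neither past the threshold. *Epha7*, on chromosome 4 (28813131 to 28967499), encodes a receptor expressed in neural tissue and mesoderm. It had 4.71, 6.18 and 4.50 TPM in the 96h libraries, 8.57, 7.05 and 8.53 TPM in Gastruloid and 9.15, 8.84 and 9.29 TPM in TLSMG. The 96h libraries were lowest without overlap. The log2 difference in Gastruloid was 0.57 (SE 0.217, limma adjusted p = 0.0506), just beyond the threshold, and it passed with median-of-ratios scaling (limma adjusted p = 0.0341). The difference in TLSMG was 0.73 (limma adjusted p = 0.014). That call was lost without 96h replicate 3 (limma adjusted p = 0.0508) and after a correction for GC content and length (0.27, limma adjusted p = 0.223).

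Between the 96h and the Gastruloid group, 8 of the 10 members passed the test, against 41.2% of all tested genes. Of the members 2 were higher and 6 lower, against 20.8% and 20.5% of all genes. The libraries of the 2 groups did not overlap for 9 members, against 56.8% of all genes. The median log2 difference was -0.83 over the members and 0.004 over all tested genes. For TLSMG against the 96h group, 9 of 10 passed, against 46.0% of all genes, and the medians were -0.51 and 0.14. The split was 3 higher and 6 lower, against 33.5% and 12.5% of all genes, and 9 members did not overlap, against 58.4%. Median-of-ratios scaling turned the split of all called genes from 4792 higher and 1785 lower into 3147 and 3342, and the members stayed at 3 higher and 6 lower. The 9 other tested genes of the family mostly went the other way. In each comparison 5 of them were higher and 1 lower, with medians of 0.23 in Gastruloid and 0.32 in TLSMG. With median-of-ratios scaling their counts in TLSMG were 4 higher and 2 lower. Both comparisons use the same 96h libraries. In TLSMGC against the 96h group, 7 of 10 passed, against 40.7% of all genes, with 2 higher and 5 lower, against 20.6% and 20.1%. For 7 members the libraries did not overlap, against 52.3% of all genes. Of the 9 other tested family genes, 2 were higher and 2 lower. There *Epha4* stood at -2.18 (limma adjusted p = 3.93e-06), *Efnb2* at -1.91 (limma adjusted p = 4.48e-07), *Epha7* at 1.7 (limma adjusted p = 3.47e-05) and *Ephb3* at 0.95 (limma adjusted p = 5.61e-05). *Efna1*, with a difference of 0.02 (limma adjusted p = 0.908), did not pass in that comparison.

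**Figure D2:**
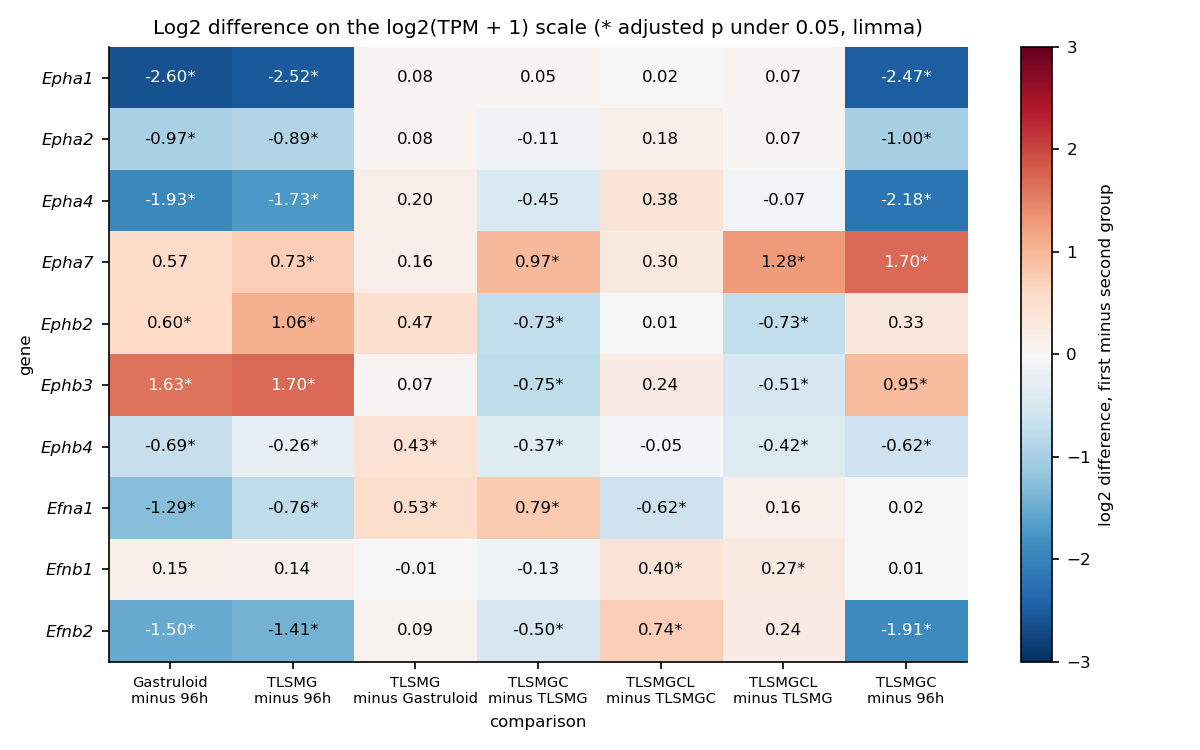
Log2 difference of each member (rows) in the 7 comparisons between groups (columns), first minus second group, on the log2(TPM + 1) scale; red is higher and blue lower in the first group, and an asterisk marks a limma adjusted p under 0.05. The columns against the 96h group hold the largest values, down to -2.60 for *Epha1*, and the TLSMGCL minus TLSMGC column has 3 asterisks, for *Efna1*, *Efnb1* and *Efnb2*.

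The balance within the family shifted with these changes. Over the 14 receptor genes, the summed level was 296 ± 15.7 TPM (SD, n = 3) in the 96h group and 174 ± 10.0 TPM (SD, n = 3) in Gastruloid. EphA receptors made up 53.0%, 51.1% and 56.6% of it in the 96h libraries, a share that does not depend on how the libraries are scaled. The share was 26.8% ± 1.14 (SD, n = 3) in Gastruloid, 26.1% ± 0.961 (SD, n = 3) in TLSMG, 37.0% ± 4.16 (SD, n = 3) in TLSMGC and 40.0% ± 2.43 (SD, n = 3) in TLSMGCL. The 96h libraries thus carried more EphA than EphB transcript, and all 12 later libraries the reverse. The majority at 96 h rests on *Epha1*, the gene that overlaps *Zyx*: without it the EphA share was 45.8%, 40.1% and 47.4% in the 96h libraries, still above the highest later library, at 39.5%. *Epha4* alone was 30.8% ± 4.28 (SD, n = 3) of the receptor transcript at 96 h and 13.2% ± 0.507 (SD, n = 3) in Gastruloid. Among the 8 ephrins, *Efnb2* held 41.5% ± 6.33 (SD, n = 3) of the summed TPM in the 96h group, 17.2% ± 1.58 (SD, n = 3) in TLSMGC and 25.5% ± 1.83 (SD, n = 3) in TLSMGCL.

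**Figure D3:**
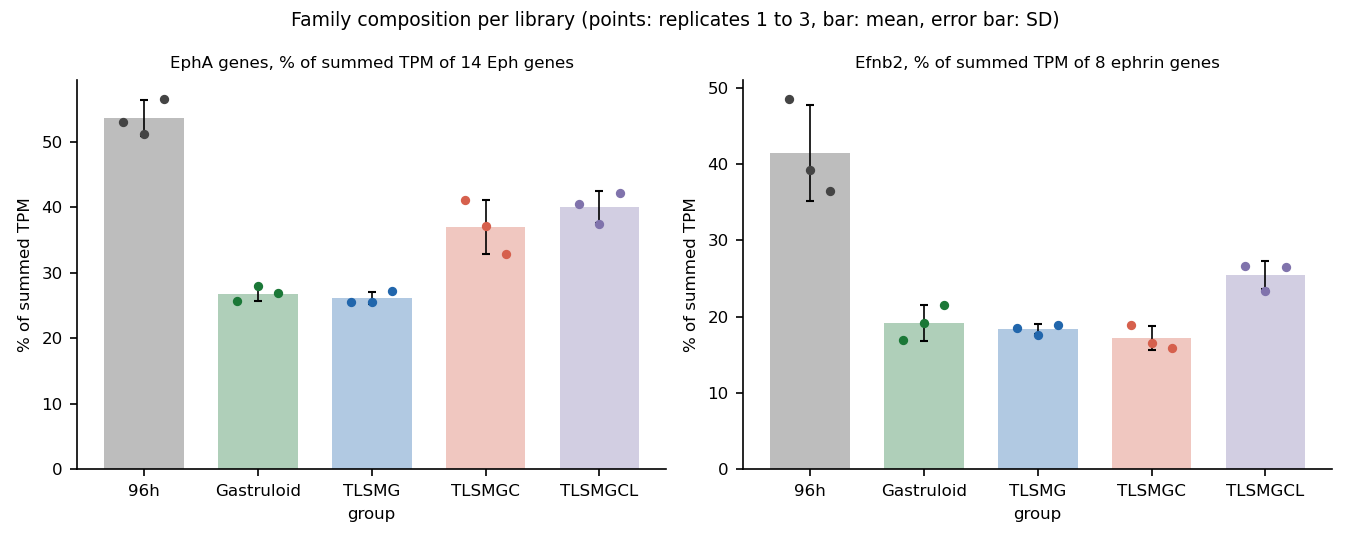
Left, the percentage of the summed TPM of 14 Eph genes that came from EphA genes; right, the percentage of the summed TPM of 8 ephrin genes that came from *Efnb2*; both by group, with points for replicates 1 to 3, bars for the mean and error bars for the SD. Both shares are highest in the 96h libraries, and the EphA share is lowest in Gastruloid and TLSMG, at 26.8% and 26.1%.

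With Matrigel at 120 h, *Ephb4* and *Efna1* were higher than without it. Of the 10 members, 2 passed the test between TLSMG and Gastruloid, against 39.3% of all tested genes. Both were higher in TLSMG, against 31.5% of all genes higher and 7.87% lower, a split of 4497 and 1125 genes that became 2753 and 2584 with median-of-ratios scaling. For 5 members the libraries did not overlap, against 52.3% of all genes. *Ephb4* averaged 83.0 ± 4.62 TPM in TLSMG and 61.3 ± 3.59 TPM in Gastruloid (SD, n = 3 each), a log2 difference of 0.43 (SE 0.086, limma adjusted p = 0.00185). *Efna1* averaged 7.38 ± 0.802 and 4.81 ± 0.282 TPM (SD, n = 3 each), a log2 difference of 0.53 (SE 0.132, limma adjusted p = 0.00714). On the deposited FPKM values, the *Efna1* difference was 0.33 (limma adjusted p = 0.0626). The 9 endothelial markers moved with *Ephb4* here: 8 of 9 were higher in TLSMG, and they summed to 267 to 324 TPM there and 34.6 to 45.8 TPM in Gastruloid. *Kdr*, the VEGF receptor of endothelial cells, stood at 95.3 ± 10.3 TPM against 5.80 ± 1.17 TPM (SD, n = 3 each), and the part of these cells in the *Ephb4* level was not tested. *Ephb2* was 0.47 higher in TLSMG on the log2 scale without passing (limma adjusted p = 0.0595). All other members differed by 0.20 or less. In this comparison the median over all tested genes was 0.13, and the log2 differences of all genes correlated with their GC content (Pearson r = -0.407 across 14283 genes, which are not independent replicates).

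Further CHIR99021 in Matrigel brought *Epha7* and *Efna1* up and lowered 3 EphB receptors and *Efnb2*. Of the 10 members, 6 passed the test between TLSMGC and TLSMG, against 40.9% of all tested genes, and the medians were -0.25 over the members and -0.16 over all genes. The split was 2 higher and 4 lower, against 10.4% and 30.5% of all genes, and 6 members did not overlap, against 52.4%. With median-of-ratios scaling, which moves the overall median to 0, 2 members were higher and 2 lower, and the split of all called genes went from 1490 higher and 4352 lower to 2741 and 2572. The calls lost were *Efnb2* (-0.33, limma adjusted p = 0.0793) and *Ephb4* (-0.20, limma adjusted p = 0.0667). After the correction for GC content and length, 2 members were higher and 1, *Ephb3*, was lower.

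*Epha7* had 27.5, 16.9 and 14.3 TPM in the TLSMGC libraries. All 3 exceeded the TLSMG libraries, of which the highest had 9.29 TPM. The mean was 2.15 times higher, with a log2 difference of 0.97 (SE 0.217, limma adjusted p = 0.00293). TLSMGC replicate 1 was the highest of its group for *Epha7*, as it was for *Epha4* and *Ephb2*. *Efna1* had 12.7, 12.1 and 15.7 TPM in TLSMGC, again all above TLSMG, at 1.83 times its mean (log2 difference 0.79, SE 0.132, limma adjusted p = 0.0004). The TLSMGC and 96h libraries overlapped for *Efna1*.

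*Ephb3* had 18.3, 14.9 and 17.5 TPM in TLSMGC, below all TLSMG libraries and above all 96h libraries. Its log2 difference to TLSMG was -0.75 (SE 0.128, limma adjusted p = 0.000424), and this call held under median-of-ratios scaling and under the GC correction. *Ephb2* had 20.1, 11.7 and 12.7 TPM in TLSMGC, also below all TLSMG libraries (-0.73, limma adjusted p = 0.00637). After the correction for GC content and length its difference was -0.36 (limma adjusted p = 0.0826). *Ephb4* had 68.0, 57.3 and 67.4 TPM in TLSMGC, below all TLSMG libraries (-0.37, limma adjusted p = 0.00416). Here too the endothelial markers moved in the same direction, with 9 of 9 lower in TLSMGC, where they summed to 25.1 to 84.5 TPM, and their part was not tested. *Efnb2* had 36.6, 30.8 and 30.0 TPM in TLSMGC (-0.50, limma adjusted p = 0.0181). That call did not hold without TLSMG replicate 3 (limma adjusted p = 0.0569), without TLSMGC replicate 2 (0.0545) or without TLSMGC replicate 3 (0.0653). The presomitic and tailbud markers moved too, with 7 of 12 higher and 1 lower in TLSMGC.

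Few genes passed the test when LDN was added to the CHIR99021 structures. Between TLSMGCL and TLSMGC, 3 of the 10 members passed the test, against 1.18% of all tested genes, and all 3 were ephrins. The 2 that were higher stand against 0.406% of all genes higher, and the 1 that was lower against 0.777% lower. Of the 10 members, 4 did not overlap between the groups, against 15.8% of all genes. *Efnb2* had 60.4, 46.9 and 58.3 TPM in TLSMGCL, all above the 36.6 TPM of the highest TLSMGC library, a log2 difference of 0.74 (limma adjusted p = 0.0345). *Efnb1* had 57.4, 52.7 and 56.7 TPM in TLSMGCL and 44.3, 39.1 and 42.4 TPM in TLSMGC, again without overlap (0.40, limma adjusted p = 0.0408). *Efna1* went down, to 7.89, 8.28 and 8.91 TPM, below all TLSMGC libraries (-0.62, limma adjusted p = 0.0399). Of the 9 tested family genes outside the members, 1 was lower and 0 higher. It was the ephrin *Efna3* (-0.42, limma adjusted p = 0.0317), and the ephrins *Efna2*, *Efna4*, *Efna5* and *Efnb3* did not pass. None of the 7 receptors passed with limma, and 0 of them had an unadjusted p under 0.05, against 1850 of all 14290 tested genes. For *Epha4* and *Epha7* the TLSMGCL libraries overlapped those of TLSMGC, with TLSMGCL replicate 2 the lowest for *Epha4* at 19.7 TPM and for *Epha7* at 16.9 TPM. The 3 member calls rest on all 6 libraries: leaving out any 1 library left 0 or 1 of the 3. In a fit of these 2 groups alone none of the members passed, and the limma adjusted p was 0.0947 for *Efnb2* and 0.153 for *Efna1* and *Efnb1*.

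With both compounds against Matrigel alone, 5 of 10 members passed between TLSMGCL and TLSMG, against 44.9% of all tested genes. The split was 2 higher and 3 lower, against 9.31% and 35.6% of all genes, and 5 members did not overlap, against 54.7%. *Epha7* had 26.8, 16.9 and 28.4 TPM in TLSMGCL, above every TLSMG library (1.28, limma adjusted p = 0.000387). *Efnb1* was higher by 0.27 (limma adjusted p = 0.0203), a call lost without TLSMG replicate 1 (limma adjusted p = 0.0845), TLSMGCL replicate 1 (0.0586) or TLSMGCL replicate 3 (0.0551). The 3 lower genes were *Ephb2* (-0.73, limma adjusted p = 0.00596), *Ephb3* (-0.51, limma adjusted p = 0.00565) and *Ephb4* (-0.42, limma adjusted p = 0.00156). With median-of-ratios scaling the split of the members was 3 higher and 2 lower, and that of all called genes went from 1330 higher and 5086 lower to 2837 and 2749, with *Efnb2* gained (0.45, limma adjusted p = 0.02) and *Ephb3* lost (-0.30, limma adjusted p = 0.0575). After the GC and length correction it was 4 higher and 0 lower, and the EphB receptors had limma adjusted p-values of 0.138 for *Ephb2*, 0.144 for *Ephb3* and 0.255 for *Ephb4*. TLSMGC and TLSMGCL share the TLSMG libraries as their reference here.

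Of the other 12 family genes, *Epha3*, *Epha6* and *Epha10* were too low to be tested, with at most 1.60, 0.0784 and 0.134 TPM in any library, and all 9 tested differed among the 5 groups, against 73.5% of all tested genes. Between TLSMGC and TLSMG, 1 of the 9 was higher and 5 were lower, against 10.4% and 30.5% of all genes. *Ephb1*, an EphB receptor, had 2.43, 2.04 and 2.22 TPM in TLSMGC and 9.80, 9.54 and 7.73 TPM in TLSMG, 4.05 times lower (limma adjusted p = 1.19e-06). *Epha8* was the reverse, with 3.37, 2.71 and 3.13 TPM in TLSMGC, at least 2.89 TPM in each TLSMGCL library and no more than 0.258 TPM in any other library (TLSMGC against TLSMG, limma adjusted p = 5.61e-08). *Ephb1* and *Epha8* separate the libraries with further CHIR99021 from all others without overlap. *Epha8* reached the mean of 1 TPM needed for testing only through the TLSMGC and TLSMGCL libraries, so its p-value is not separate support. *Epha5* went from 0.746 to 1.28 TPM in the 96h libraries to 5.65 to 6.23 TPM in the TLSMGC libraries. *Ephb6*, a receptor whose kinase domain is inactive, was highest in Gastruloid, at 10.7 to 11.4 TPM.

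The other ephrins did not share 1 pattern. *Efna2* and *Efna4* were abundant in every library, at 24.0 to 38.4 and 29.7 to 44.6 TPM. Neither passed between TLSMG and Gastruloid (limma adjusted p = 0.0633 for *Efna2* and 0.0956 for *Efna4*). After the GC and length correction both were higher in TLSMG. The differences were then 0.204 for *Efna2* (limma adjusted p = 0.0255) and 0.225 for *Efna4* (limma adjusted p = 0.00628). *Efna3* fell from 26.6 ± 1.12 TPM in the 96h group to 9.19 ± 0.142 TPM in Gastruloid (SD, n = 3 each; limma adjusted p = 1.88e-08), in the same direction as *Efna1*. *Efnb3*, an ephrin-B known from the nervous system, rose from 20.95 ± 0.748 to 35.8 ± 4.05 TPM (SD, n = 3 each; limma adjusted p = 1.68e-05), and was lower in TLSMGC than in TLSMG, at 19.4 ± 0.455 against 37.2 ± 3.16 TPM (SD, n = 3 each; limma adjusted p = 3.56e-06). *Efna5* was highest in TLSMG, with 23.1, 26.4 and 23.7 TPM. It was lower in Gastruloid (15.1 ± 1.42 TPM, SD, n = 3; limma adjusted p = 0.0073, and 0.079 after the GC and length correction) and in TLSMGC (11.3 ± 2.28 TPM, SD, n = 3; limma adjusted p = 0.000227). The neural tube markers also stood lower in TLSMGC, at 63.9 to 78.2 TPM against 214 to 323 TPM in TLSMG, and their part in *Efnb3* and *Efna5* was not tested.

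**Figure D4:**
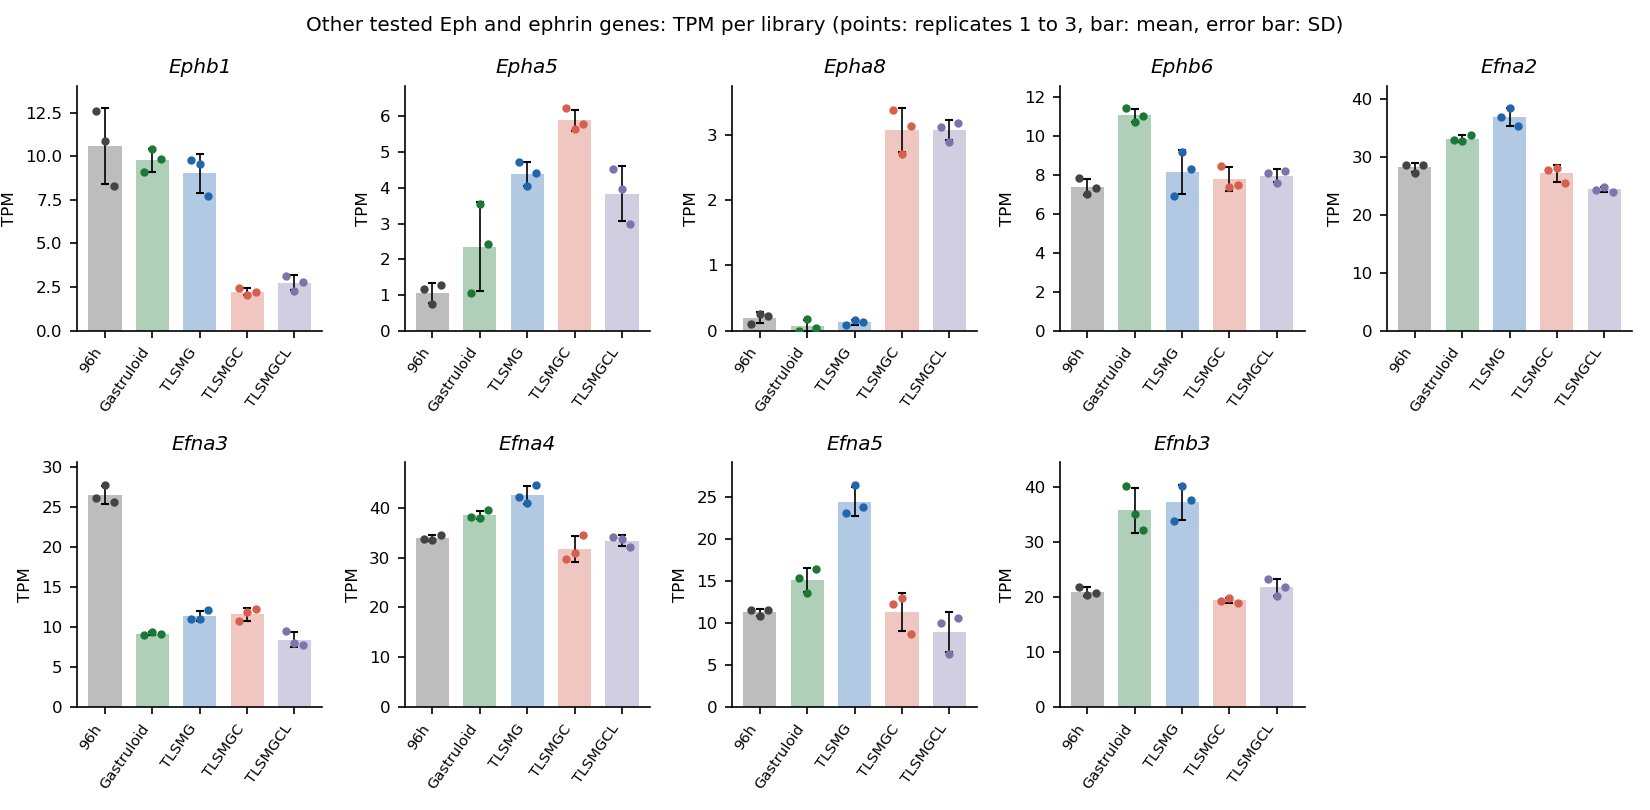
TPM of the 9 other tested Eph and ephrin genes (vertical axis, 1 panel per gene) in the 5 groups, with points for replicates 1 to 3, bars for the mean and error bars for the SD. *Ephb1* is lowest and *Epha8* highest in the TLSMGC and TLSMGCL libraries, *Efna3* is highest in the 96h libraries, and *Efna5* is highest in TLSMG.

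Proteins that carry Eph and ephrin signals inside the cell were taken as a list of 27 effectors and partners, of which 26 were tested. In TLSMG, 12 of 26 were higher and 0 lower than in the 96h group, and 11 were higher and 0 lower than in Gastruloid. In TLSMGC, 1 was higher and 15 were lower than in TLSMG. Over all tested genes the shares higher and lower in those 3 comparisons were 33.5% and 12.5%, 31.5% and 7.87%, and 10.4% and 30.5%. With median-of-ratios scaling the counts of effectors were 8 higher and 1 lower, 7 higher and 1 lower, and 1 higher and 8 lower. All called genes then split into 3147 higher and 3342 lower, 2753 and 2584, and 2741 and 2572. After the GC and length correction the counts of effectors were 7 higher and 2 lower, 5 higher and 1 lower, and 2 higher and 6 lower. The split of all called genes was then 2981 higher and 3503 lower, 1788 and 1492, and 3102 and 2449. Between TLSMGCL and TLSMGC none of the 26 passed with limma, against 1.18% of all tested genes. An unadjusted limma p under 0.05 was found for 5 of them, all lower, against 1850 of all 14290 tested genes. *Arhgef15*, a guanine nucleotide exchange factor that acts below EphB2, stood at 4.92 ± 0.118 TPM in TLSMG and 0.717 ± 0.346 TPM in Gastruloid (SD, n = 3 each; 1.81, limma adjusted p = 1.45e-05). *Vav3*, another such exchange factor, stood at 5.68 ± 0.345 and 2.04 ± 0.828 TPM (SD, n = 3 each; 1.18, limma adjusted p = 0.00263). Both genes moved in the same direction as the endothelial markers, whose part was not tested. *Arhgef15* reached the mean of 1 TPM needed for testing only through the TLSMG libraries, so its p-value is not separate support. *Kalrn*, an exchange factor for Rac, fell in TLSMGC to 6.00 ± 1.33 TPM from 16.5 ± 3.51 TPM in TLSMG (SD, n = 3 each; -1.32, limma adjusted p = 3.48e-05). *Rgs3*, a regulator of G-protein signalling that binds ephrin-B, fell to 4.93 ± 0.811 from 13.8 ± 1.46 TPM (SD, n = 3 each; -1.32, limma adjusted p = 1.14e-05).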

How the data were processed

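The authors' deposited TPM values, 1 gene table per library, came from cutadapt 2.4, STAR 2.7.3a and StringTie 2.0 on build mm10, per the submitters' processing notes; the labels describe stranded paired-end libraries from polyadenylated RNA. The deposited FPKM values in the same tables served as an alternative. The deposited coverage, per the file headers, was used only to compare depth. No read counts were used, so no counting intervals or floors were computed. Lines of 1 gene ID were summed (7 to 13 repeats per table). Coordinates are those of the tables, and 53499 of 54446 IDs have the same ones in GENCODE M21.

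Genes averaging 1 TPM or more across libraries were tested on log2(TPM + 1) with limma 3.58.1 in R 4.3.3, all 5 groups in 1 fit with a mean trend. Differences on this scale understate changes of genes with low TPM. The fitting script was tested on simulated data. Other values came from Python 3.11.15 with pandas 2.3.3. All 10 members were named. Of the effectors, those past the threshold with an absolute log2 difference of at least 1 were eligible, at most 3 per comparison. The 3 genes most like a member were ranked by Pearson r among genes with a mean of at least 5 TPM. The members and lists were chosen with earlier results of these data known. Alternatives were a pseudocount of 0.1, a minimum mean of 5 TPM, no filter, median-of-ratios scaling, FPKM, a replicate block, only the 2 groups compared, no mean trend, each library left out and, added after seeing the data, a correction for GC content and length. Amino acid sequences, the 5 single-cell samples and NanoString data were not used here.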

Additional observations from a re-analysis of the deposited data

How the results depend on the processing

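Of 1280 values of member results under the alternatives, 1174 kept their direction and side of the threshold, 52 lost and 13 gained a call, and 41 changed sign; none that changed sign passed the test under either setting. Between TLSMGCL and TLSMGC, the 3 member calls became 0 with no filter, 0 with only the 2 groups, 1 with the replicate block and 0 to 1 leaving out a library. All genes called there, 169 (1850 at an unadjusted p under 0.05), became 42 with only the 2 groups, 279 with the GC and length correction and 56 to 198 leaving out a library. For TLSMG against Gastruloid, member calls became 1 on FPKM, and 5622 genes called became 3280 with the GC and length correction, which also left 3 of 6 member calls for TLSMGC against TLSMG. The cause was not tested. The deviations of same-numbered replicates from their group means correlated with r from -0.181 to 0.104. With 3 libraries per group, these values cannot settle whether same-numbered samples were made together. The replicate block changed no member call outside TLSMGCL against TLSMGC. With median-of-ratios scaling, signs changed to -0.034 for *Efnb1* (TLSMG against 96h), to -0.074 for *Efnb2*, -0.097 for *Ephb3*, -0.063 for *Epha2* and -0.067 for *Epha1* (TLSMG against Gastruloid), to 0.035 for *Epha2* and 0.039 for *Efnb1* (TLSMGC against TLSMG) and to 0.132 for *Epha4* (TLSMGCL against TLSMG). On FPKM they changed to -0.076 for *Efnb2*, -0.097 for *Ephb3*, -0.058 for *Epha2* and -0.064 for *Epha1* (TLSMG against Gastruloid), and 0.053 for *Epha4* (TLSMGCL against TLSMG). With the GC and length correction they changed to -0.11 for *Efnb2*, -0.066 for *Ephb3*, -0.001 for *Epha2*, -0.20 for *Epha4* and -0.41 for *Epha7* (TLSMG against Gastruloid), 0.12 for *Epha2* and 0.063 for *Efnb1* (TLSMGC against TLSMG) and 0.32 for *Epha4* (TLSMGCL against TLSMG). Leaving out a library gave, for TLSMGC against 96h, -0.124 to 0.139 for *Efna1* and -0.055 to 0.065 for *Efnb1*. For TLSMG against Gastruloid it gave -0.070 to 0.057 for *Efnb1*, -0.010 to 0.199 for *Efnb2*, -0.064 to 0.182 for *Epha1*, -0.001 to 0.180 for *Epha2* and -0.019 to 0.137 for *Ephb3*. For TLSMGCL against TLSMGC it gave -0.011 to 0.073 for *Epha1*, -0.137 to 0.231 for *Ephb2* and -0.131 to 0.020 for *Ephb4*, and against TLSMG -0.011 to 0.175 for *Epha2* and -0.180 to 0.098 for *Epha4*.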

Other observations

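Within the 6 libraries with further CHIR99021 (TLSMGC and TLSMGCL), *Epha4* and *Epha7* varied together: both were high in TLSMGC replicate 1, at 30.0 and 27.5 TPM, and low in TLSMGC replicates 2 and 3 and in TLSMGCL replicate 2. The Pearson r of their TPM values, without a log transform, over these 6 libraries was 0.981, and that of *Epha4* with *Ephb2* was 0.814. The 6 points mix 2 groups, so both values are descriptions. Across all 15 libraries, in contrast, *Epha4* was highest and *Epha7* lowest in the 96h group.

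The genes whose levels were most like those of a member differed from member to member. For *Epha4* they were *Myadm* (Pearson r = 0.98), *Ajap1* (0.969) and *Anks6* (0.968), and for *Efnb2* they were *Ajap1* (0.968), *Foxc2* (0.961) and *Slc35b4* (0.954), so *Ajap1* was named for both. For *Epha1* they were *Itgb5* (0.986), *Slit3* (0.986) and *Sprr2a2* (0.985), and for *Epha7* they were *Fads1* (0.965), *Cadm1* (0.964) and *Ddit4l* (0.961). *Efnb1*, which varied least, had the weakest likeness, with *Arhgef26* (0.911), *Nprl2* (0.837) and *Krtcap2* (0.816). All are over the same 15 libraries, which share their group structure.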
